A study of Mus musculus with 15 samples.

Results

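GABA, the main inhibitory transmitter of the brain, acts on receptors of either of 2 kinds, and this account follows 7 genes that encode their subunits in the hippocampus of aged female mice: Gabra2, Gabra4, Gabra5, Gabrb1, Gabrd, Gabbr1 and Gabbr2. They were taken by symbol, matched to the gene identifiers of the count files, and all 7 were among the 19536 genes, of 55401 in the files, that passed a filter on low counts. The mice were 18 to 20 months old by the paper's methods, while its discussion gives a somewhat higher approximate age. The Tg2576 mice (genotype Tg2576 +/+ in the labels) carried a transgene for human amyloid precursor protein with the Swedish mutation under the prion promoter, and their WT littermates (Tg2576 -/-) carried none. Animals of each genotype received 450 mg/kg docosahexaenoic acid (DHA) in sesame oil, or sesame oil alone as the vehicle, daily into the stomach for 5 weeks. The study also put its mice through fear conditioning and Morris water maze tests. RNA of the hippocampus was sequenced from 4 vehicle and 4 DHA mice of the WT genotype and from 4 vehicle and 3 DHA mice of the Tg2576 genotype.

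GABA-A receptors are chloride channels built of 5 subunits around a pore, and the choice of alpha, beta and gamma or delta subunit sets where the channel sits and how long it opens. GABA-B receptors are G-protein-coupled and work only as a pair of Gabbr1 and Gabbr2 products, which close calcium channels at terminals and open potassium channels on dendrites. In the hippocampus, alpha5-containing receptors are known for a slow, largely extrasynaptic inhibition of pyramidal cells, and alpha4 with delta for tonic inhibition of dentate granule cells.

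Counts assigned to genes ran from 17372864 to 46596489 per mouse. App, the gene whose human form the transgene carries, ranged from 2075 to 2785 CPM (counts per 1000000 counted reads, TMM-scaled) in the 7 Tg2576 mice and from 1571 to 1786 CPM in the 8 WT mice. Summed markers of choroid plexus, a tissue beside the hippocampus, differed widely between mice, from 61.4 to 5820 CPM over 6 genes. In Tg2576 DHA mice this sum was 3101 to 5151 CPM, and in Tg2576 vehicle mice 141.0 to 3165 CPM. Summed markers of dentate granule cells (6 genes) had medians of 335.0 CPM in WT vehicle and 289.3 CPM in Tg2576 vehicle mice, and 328.9 and 233.4 CPM in the DHA-treated mice of these genotypes. The interneuron sum (8 genes) had medians of 933 CPM in WT vehicle and 791 CPM in Tg2576 vehicle mice. In the same order, the neuron sum (5 genes) had medians of 9873 and 9311 CPM and the CA1 sum (5 genes) 744.5 and 725.7 CPM. The CA3 sum (5 genes) was 279.4 to 310.1 CPM in WT vehicle and 225.2 to 264.9 CPM in Tg2576 vehicle mice, without overlap. The lowest neuron sum of all mice was 7934 CPM, in Tg2576 DHA replicate 1. The astrocyte sum (5 genes) had medians of 1420 CPM in WT vehicle and 2020 CPM in Tg2576 vehicle mice. It includes Gfap, whose protein differed by genotype in the paper's Western blots. Every marker gene of these lists passed the filter. In such bulk tissue, fewer cells of a type and less RNA per cell cannot be told apart, and what these markers contribute to any value below was not tested.

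Of the 7 genes, 3 lie close together on chromosome 5 of GRCm38. Gabra2 (ENSMUSG00000000560.9) occupies chr5:70957597-71095849 on the minus strand, Gabra4 (ENSMUSG00000029211.11) chr5:71569749-71658308 on the minus strand and Gabrb1 (ENSMUSG00000029212.11) chr5:71658113-72149037 on the plus strand. Gabra4 and Gabrb1 overlap head to head on opposite strands, each start lying within the other gene, and their annotated exons share 46 bases there. Gabra5 (ENSMUSG00000055078.7) is at chr7:57407672-57510059, minus strand. Gabrd (ENSMUSG00000029054.8) is at chr4:155384980-155398112 and Gabbr2 (ENSMUSG00000039809.10) at chr4:46662305-46991873, both on the minus strand. Gabbr1 (ENSMUSG00000024462.17) is at chr17:37045966-37075067, plus strand. Exons of Gabra5 share 148 bases with Gm9962, and those of Gabra2, Gabrd, Gabbr1 and Gabbr2 share none with another gene. The counting command in the file headers sets no strand option, so reads in the shared bases could not be told apart between genes.

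Among pairs of the 7 genes, the neighbours Gabra4 and Gabrb1 had the highest correlation over the mice before correction for length or GC content. Their start regions are shown for that reason, and the values are given further on. Each runs from 250 bases before to 50 bases after a RefSeq start in GRCm38.p6, 5′ to 3′ on the gene's own strand, and capitals mark CG dinucleotides. The first is chr5:71658259-71658558, minus strand, and the second chr5:71657671-71657970, plus strand, the upstream of 2 listed Gabrb1 starts.
Gabra4: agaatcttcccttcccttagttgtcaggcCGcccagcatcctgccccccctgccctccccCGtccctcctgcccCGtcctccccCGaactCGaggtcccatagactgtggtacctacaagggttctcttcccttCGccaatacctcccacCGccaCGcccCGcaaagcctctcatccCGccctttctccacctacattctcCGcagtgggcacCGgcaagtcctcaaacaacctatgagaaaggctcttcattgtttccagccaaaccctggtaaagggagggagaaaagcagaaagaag
Gabrb1: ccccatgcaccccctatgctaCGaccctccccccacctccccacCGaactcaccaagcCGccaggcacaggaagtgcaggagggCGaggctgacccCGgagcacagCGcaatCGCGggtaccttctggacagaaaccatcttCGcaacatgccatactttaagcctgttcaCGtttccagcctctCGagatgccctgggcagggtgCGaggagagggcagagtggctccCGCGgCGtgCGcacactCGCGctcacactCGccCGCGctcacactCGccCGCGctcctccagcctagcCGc
The Gabra4 window held 12 CG dinucleotides at 58.7% G and C, and the Gabrb1 window 25 at 66.0%. The median over 32851 mouse windows of this length was 7 at 52.7%. Of 4 motifs looked for on both strands in the windows of 6 of the 7 genes, none was found in any. They were TGACGTCA, GCGGGGGCG, GCGTGGGCG and TATAAA, which occurred in 1.79%, 2.91%, 0.612% and 13.6% of all windows.

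Per unit of exon length, the GABA-B genes were the most abundant of the 7 and the GABA-A genes other than Gabra5 the least. In TPM (counts divided by exon length and scaled to a total of 1000000), Gabbr1 had 373 ± 29.4 (SD, n = 15 mice) and its partner Gabbr2 205 ± 34.6. Gabra5, the alpha subunit typical of hippocampal pyramidal cells, had 166 ± 17.5 TPM. Gabra2, a synaptic alpha subunit, had 51.5 ± 13.9 TPM, and Gabrd, the delta subunit of extrasynaptic receptors, 44.6 ± 9.71 TPM. Gabra4 had 42.3 ± 5.67 TPM and Gabrb1, a beta subunit, 40.6 ± 9.03 TPM. Gabbr1 was above Gabbr2, and Gabra5 above Gabra2, in 15 of 15 mice and without overlap in all 4 groups. Gabbr2 exceeded Gabra5 in 13 of 15 mice, and the groups were apart in 1 of 4. The order among the other 4 was not resolved, since Gabra2 exceeded Gabrd in 10 mice, Gabrd exceeded Gabra4 in 9 and Gabra4 exceeded Gabrb1 in 11. Over all 19536 genes the TPM of Gabbr1 stood at percentile 98.2, that of Gabra5 at 94.8 and that of Gabrb1 at 77.3.

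**Figure D1:**
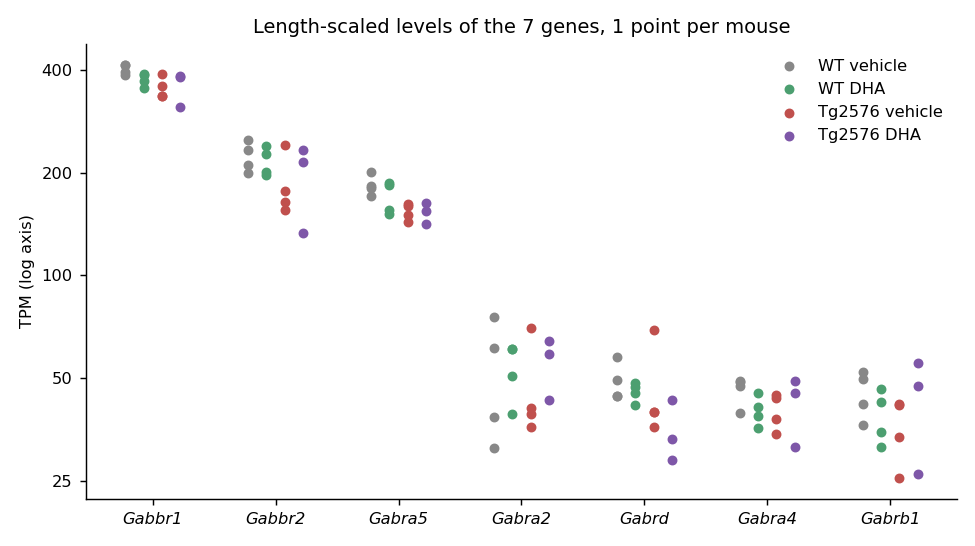
Length-scaled level (TPM, log axis) of each gene, ordered by mean, with 1 point per mouse coloured by group. Gabbr1 lies above Gabbr2 in 15 of 15 mice, and the 4 genes on the right overlap.

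The 5 GABA-A members made up 45.2% ± 1.96 of the summed TPM of 19 GABA-A subunit genes in WT vehicle mice and 43.1% ± 2.35 in Tg2576 DHA mice (SD, n = 4 and 3). The share was 47.0% ± 2.79 in WT DHA and 46.2% ± 4.38 in Tg2576 vehicle mice (n = 4 each). Gabra5 alone held 22.1% in WT vehicle and 20.2% in Tg2576 DHA mice, and 22.9% in WT DHA and 22.0% in Tg2576 vehicle mice. Gabrb1 held 5.41% in WT vehicle and 5.51% in Tg2576 DHA mice. In WT DHA and Tg2576 vehicle mice the share of Gabrb1 was 5.24% and 5.07%.

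The first question was whether the transgene went with a change in these receptors under vehicle. No member passed the unadjusted p of 0.01 that the study used for its selection of genes, while 3.09% of all genes tested did. In the CPM values, scaled by TMM factors and not by gene length, Gabra5 read 134.5, 155.7, 131.2 and 152.3 in WT vehicle and 120.9, 118.6, 142.4 and 132.4 in Tg2576 vehicle mice. The ranges overlapped, with the Tg2576 mice on the lower side. The log2 fold change was -0.16 ± 0.10 (SE), with a 95% interval from -0.36 to 0.04 and an unadjusted p of 0.117 in edgeR's quasi-likelihood test. Gabrb1 read 172.9, 188.7, 130.7 and 163.7 CPM in WT vehicle and 146.7, 161.2, 139.9 and 104.9 in Tg2576 vehicle mice, a log2 difference of -0.25 (interval -0.63 to 0.13). For Gabbr2 the WT vehicle mice had 391.8, 436.7, 344.8 and 395.4 CPM. The Tg2576 vehicle mice had 405.1, 328.6, 311.6 and 325.8 CPM, so 3 of them lay under every WT vehicle mouse and the first lay among them. Its log2 difference was -0.19 (interval -0.45 to 0.06).

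Gabbr1, the subunit that binds GABA in the GABA-B pair, was the steadiest of the 7. It read 767.7, 840.0, 829.6 and 840.6 CPM in WT vehicle and 758.0, 770.4, 780.7 and 771.9 CPM in Tg2576 vehicle mice. WT vehicle replicate 1 lay among the Tg2576 mice, and the other 3 lay above all of them. The log2 difference was -0.09, with an interval from -0.23 to 0.05. For Gabbr1 the interval thus holds no loss below 0.852-fold. Gabra4 differed by -0.11 (interval -0.34 to 0.12). Gabra2 (-0.05, interval -0.71 to 0.60) and Gabrd (0.03, interval -0.41 to 0.47) had intervals too wide to show a difference of such size. The median over the 7 genes was -0.11, against 0.0003 over all genes tested, and the groups were without overlap for 0 of 7 genes, against 5.16% of all genes.

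**Figure D2:**
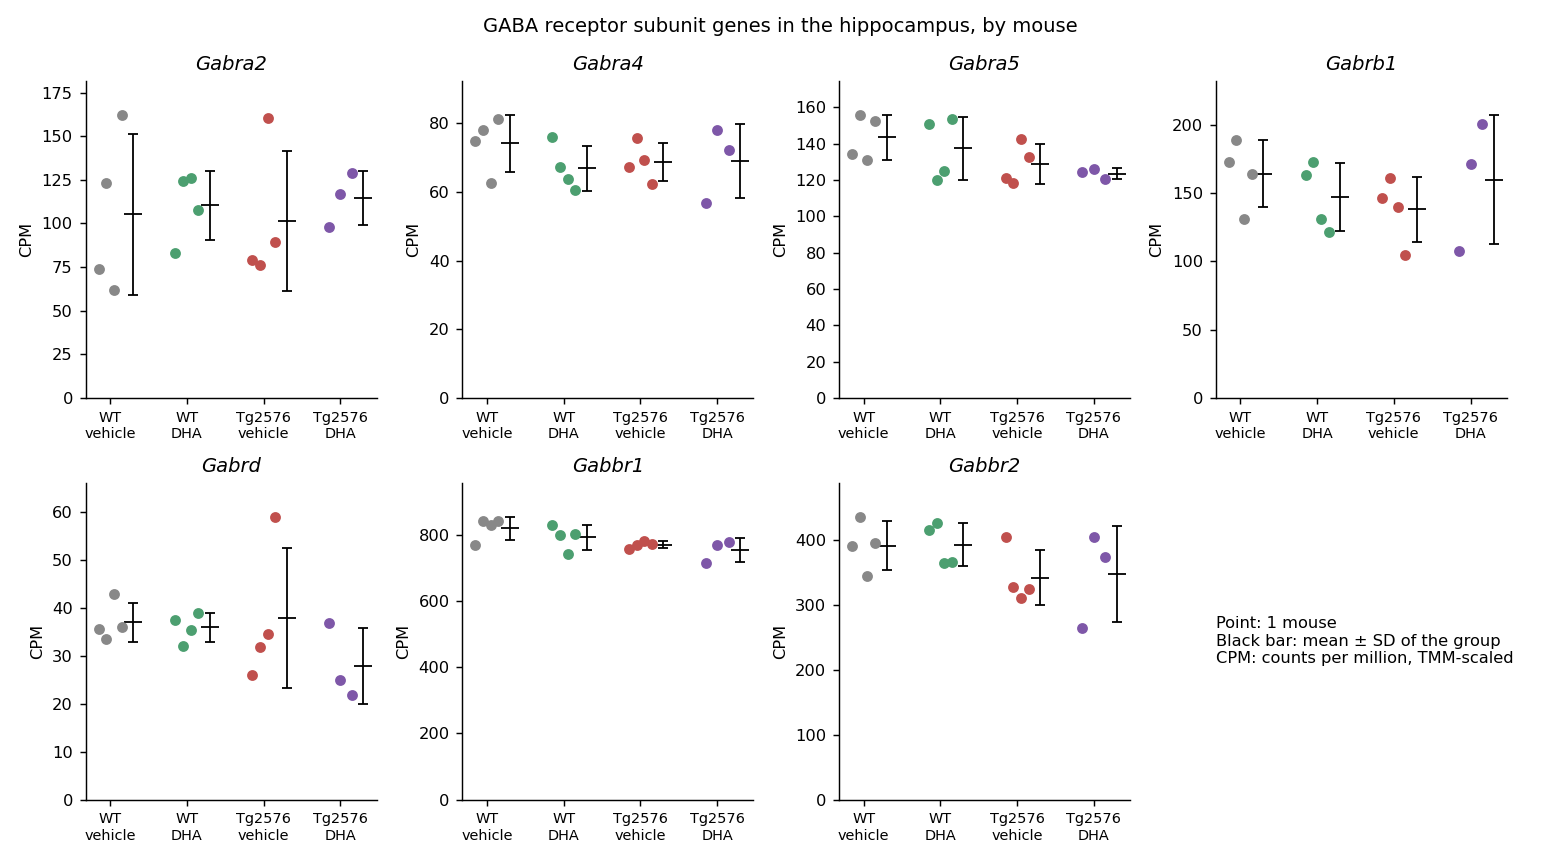
CPM of each gene by mouse in the 4 groups, with the group mean ± SD as black bars and axes from 0. Gabbr1 is tightly held while Gabra2 runs from 61.7 to 162.1 within WT vehicle mice alone, and the groups overlap in every panel.

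Under DHA the comparison of genotypes again gave 0 of 7 members at p under 0.01, beside 1.75% of all genes, and no member's groups were apart, beside 8.55% of all genes. Here n was 4 against 3. Gabrd had 37.4, 32.0, 35.4 and 38.9 CPM in WT DHA and 36.7, 24.9 and 21.7 CPM in Tg2576 DHA mice. The first Tg2576 DHA mouse lay within the WT range and the other 2 lay below it. The log2 difference of Gabrd was -0.37 (interval -0.85 to 0.11, unadjusted p 0.121, edgeR). The dentate granule marker sum, from cells in which Gabrd is known to be prominent, was 228.7 to 411.8 CPM in WT DHA and 201.5 to 234.4 CPM in Tg2576 DHA mice, and its part in the Gabrd difference was not tested. Gabbr2 had 416.2, 427.0, 364.7 and 366.5 CPM in WT DHA mice, and 264.3, 405.2 and 375.1 CPM in Tg2576 DHA mice, a log2 difference of -0.18 (interval -0.45 to 0.10). With 1 surrogate variable in the fit, the Gabbr2 difference became -0.27 at an unadjusted p of 0.00359 (adjusted p 0.266, edgeR) and passed the threshold. That fit called 602 of all genes, against 342 without the variable. Gabra5 had 151.0, 120.3, 124.9 and 153.7 CPM in WT DHA mice, and 124.2, 126.2 and 120.4 CPM in Tg2576 DHA mice. These 3 values lay together near the lower WT DHA mice, and the log2 difference was -0.15 (interval -0.37 to 0.06). Gabra2, Gabra4, Gabrb1 and Gabbr1 had log2 differences of 0.05, 0.05, 0.12 and -0.07.

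The question behind the treated groups was what DHA does to hippocampal expression. In WT mice 0 of 7 members passed between DHA and vehicle against 1.38% of all genes, and 0 had groups apart against 5.02%. The log2 differences of the members ran from -0.16 for Gabrb1 to 0.07 for Gabra2. Gabra4 had 74.7, 78.0, 62.5 and 81.3 CPM in WT vehicle mice and 75.9, 67.1, 63.8 and 60.7 CPM in WT DHA mice. The lowest vehicle mouse lay among the treated ones, and the log2 difference was -0.15 (interval -0.38 to 0.08). Gabbr1 had 830.5, 797.8, 741.1 and 801.1 CPM under DHA, a difference of -0.05 (interval -0.19 to 0.09). Gabbr2 differed by 0.01, Gabra5 by -0.06 and Gabrd by -0.04.

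In Tg2576 mice 0 of 7 members passed as well, where 0.353% of all genes did, and 0 were apart where 3.20% of all genes were. Gabrd had the largest difference of the 7. It read 26.0, 31.8, 34.4 and 59.0 CPM under vehicle and 36.7, 24.9 and 21.7 CPM under DHA. Tg2576 vehicle replicate 4 stood highest of all 15 mice, and the first DHA mouse lay above 3 of the 4 vehicle mice. The log2 difference was -0.45 ± 0.23 (SE), with an interval from -0.92 to 0.03, an unadjusted p of 0.0666 in edgeR, and 0.0489 in DESeq2. This value rested on single mice. Without Tg2576 DHA replicate 1 it was -0.70 at an unadjusted p of 0.00991 (adjusted p 0.566, edgeR) and passed the threshold. Leaving out that mouse also raised the calls over all genes from 69 to 290. Without Tg2576 vehicle replicate 4 the Gabrd difference was -0.14 at a p of 0.406 (edgeR). Without Tg2576 DHA replicate 3 it was -0.30. The exact permutation p of the 4 against 3 mice was 0.343, where the smallest that this design can give is 0.0571. In the same mice the dentate granule marker sum was 230.4 to 298.8 CPM under vehicle and 201.5 to 234.4 CPM under DHA. The summed markers of thalamus (6 genes), which also expresses Gabrd, were 80.7 to 95.1 CPM under vehicle and 64.9 to 73.7 CPM under DHA, without overlap. The part of either in the Gabrd difference was not tested.

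Gabrb1 read 107.9, 171.3 and 200.3 CPM in Tg2576 DHA mice, which held the highest Gabrb1 of all mice and nearly the lowest. Its log2 difference to Tg2576 vehicle was 0.21 (interval -0.20 to 0.62). Gabra4 read 67.2, 75.8, 69.3 and 62.3 CPM under vehicle, and 56.8, 77.9 and 72.2 CPM under DHA, a difference of 0.01 (interval -0.24 to 0.26). For Gabra2 the difference was 0.18, for Gabra5 -0.06, for Gabbr1 -0.03 and for Gabbr2 0.02. Over the 7 genes in these 4 comparisons, the 28 exact permutation p-values (two-sided, on log2 CPM) ran from 0.114 to 1. With 4 against 4 mice the smallest possible value is 0.0286.

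**Figure D3:**
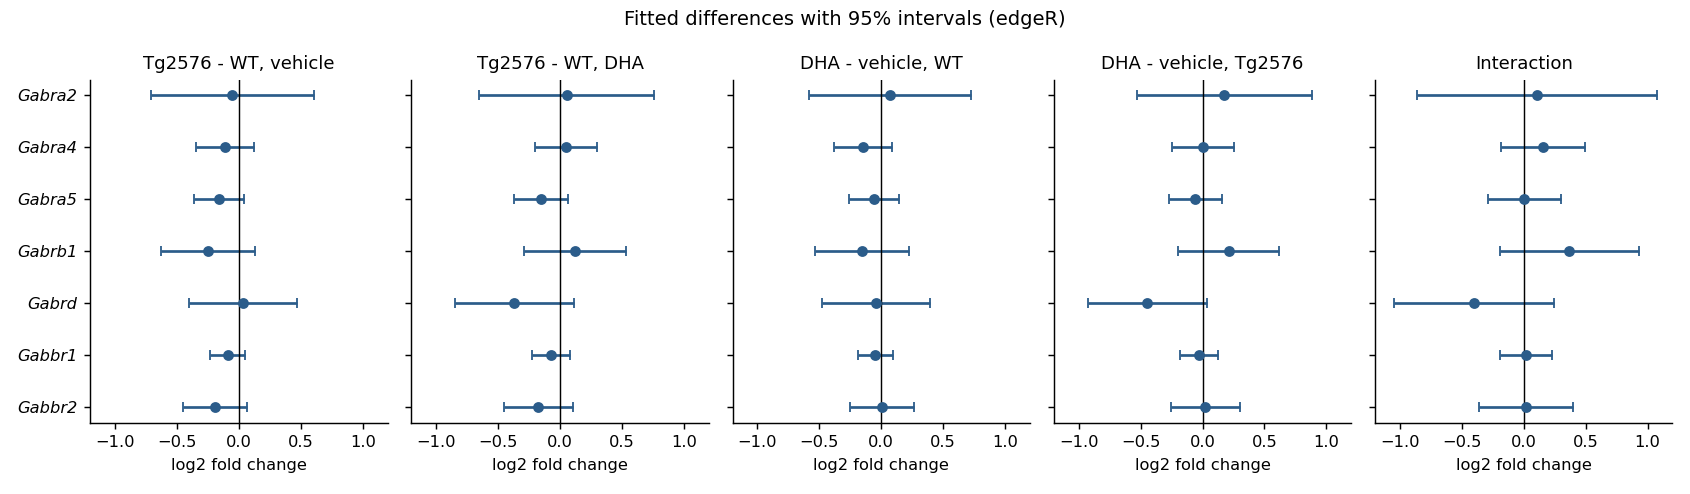
Fitted log2 fold change of each gene in 4 comparisons and the interaction, as points with 95% intervals. Every interval includes 0, and those of Gabbr1 are the narrowest and those of Gabra2 the widest.

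The interaction, the DHA difference in Tg2576 minus that in WT mice, passed for 0 of 7 members beside 0.829% of all genes. Its values ran from -0.40 for Gabrd to 0.37 for Gabrb1, with a lowest unadjusted p of 0.183 (edgeR). With both treatments averaged, the genotype difference passed for 0 of 7 beside 3.85% of all genes. Gabra5 had the lowest p of any member here, with a log2 difference of -0.16 ± 0.07 (SE, interval -0.30 to -0.01, unadjusted p 0.0409, adjusted p 0.408, edgeR). Gabbr2 followed with -0.19 (interval -0.37 to 0.0036, p 0.0541, edgeR) and Gabbr1 with -0.08 (interval -0.19 to 0.02). With 1 surrogate variable Gabbr2 (-0.18, p 0.00323) and Gabrd (-0.23, p 0.00881) passed in edgeR, at adjusted p of 0.0841 and 0.132. That fit called 1381 of all genes, against 753 without the variable. With both genotypes averaged, DHA passed for 0 of 7 beside 0.870% of all genes, Gabrd having the largest difference, -0.24 (interval -0.57 to 0.08). With the surrogate variable it was -0.23 at a p of 0.00929 (adjusted p 0.617, edgeR) and passed, in a fit that called 300 of all genes against 170.

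At an unadjusted p under 0.05, edgeR counted 1 member in all 7 comparisons, Gabra5 for the averaged genotype. DESeq2 counted that gene and Gabrd for DHA in Tg2576 mice. limma-voom counted Gabra5 and Gabbr2 for the averaged genotype. At p under 0.01 DESeq2 and limma-voom also counted 0 members in each comparison. These comparisons share mice, so they are no independent tests of one another.

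Mice of the same group differed far more in some members than in others. Gabra2 had a pooled SD within groups of 0.46 on the log2 scale, against a median of 0.25 over all genes tested, and stood at percentile 72.8. It read 74.0, 122.9, 61.7 and 162.1 CPM in WT vehicle and 83.1, 124.4, 126.1 and 107.8 CPM in WT DHA mice. The Tg2576 vehicle mice had 78.9, 76.5, 160.6 and 89.3 CPM, and their DHA-treated counterparts 97.7, 117.0 and 128.9 CPM. Both the lowest and the highest mouse were WT vehicle, a ratio of 2.63, and counts behind these values were 1391 to 5393 per mouse. Gabrd (SD 0.33) and Gabrb1 (0.30) also lay above the median gene. Gabbr2 (0.19), Gabra4 (0.16) and Gabra5 (0.13) lay below it, and Gabbr1, at 0.06, stood at percentile 0.379. Within the GABA-B pair the obligatory partners thus had unlike spreads.

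Ratios between pairs of members were compared as log2 of counts per kilobase of exon. Gabbr1 to Gabbr2, the GABA-B pair, was 0.85 ± 0.15 and 0.80 ± 0.09 (SD) in WT mice under vehicle and DHA. In Tg2576 mice under vehicle and DHA it was 0.96 ± 0.19 and 0.92 ± 0.27. The groups overlapped, and the exact permutation p ran from 0.429 to 0.857 over the 4 comparisons. Gabra4 to Gabrd, the pair of tonic dentate inhibition, was -0.08 ± 0.31, -0.19 ± 0.19, -0.15 ± 0.58 and 0.25 ± 0.61 in the same order of groups. The Tg2576 groups were widest, from -1.0 in the fourth vehicle mouse to 0.65 in a DHA mouse, and the exact p ran from 0.286 to 0.829. Gabra5 to Gabra2, an extrasynaptic and a synaptic alpha subunit, was 1.91 ± 0.53, 1.69 ± 0.44, 1.77 ± 0.39 and 1.48 ± 0.22, with exact p from 0.343 to 0.629. No ratio difference passed its exact test, and comparisons of 4 against 3 mice could not reach 0.05.

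Across the 15 mice, the neighbours Gabra4 and Gabrb1 varied together. The Pearson correlation of their log2 CPM was 0.83 (permutation p 0.00015, adjusted 0.00315 over 21 pairs of members), and Spearman's rho was 0.75 (permutation p 0.00175, adjusted 0.0365). Without the 2 mice farthest from the median of Gabra4, r was 0.82. Leaving out any 1 mouse gave 0.78 to 0.87. In the residuals from the group means r was 0.85, at least as large as over all mice. Corrected for gene length it was 0.74 and corrected for GC content 0.66, with adjusted permutation p of 0.0355 and 0.0252. With the GC correction 5 other pairs had a higher r, from 0.68 for the GABA-B partners to 0.87 for Gabrb1 with Gabbr2. The windows of Gabra4 and Gabrb1 shown above lie 288 bases apart, and the 46 shared exon bases were 0.756% of the Gabra4 exon length. Each of these genes had a higher r with genes on other chromosomes, up to 0.90 for Gabra4 with AC127249.1 and 0.96 for Gabrb1 with Mfap3l. What their position adds to their correlation was not tested.

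Gabrb1 also went with Gabbr2 (r 0.71, rho 0.72, permutation p 0.00255 and 0.00348, adjusted 0.0219 and 0.0365), and r was 0.52 without the 2 mice farthest in Gabrb1. With the length offset this r was 0.41 at an adjusted permutation p of 0.361, and with the GC offset 0.87 at 0.00042. Gabrb1 and Gabrd moved in opposite directions (r -0.70, rho -0.67, permutation p 0.00313 and 0.00802, adjusted 0.0219 and 0.0561), with r -0.58 without the 2 mice farthest in Gabrb1 and -0.83 in the residuals. With the GC offset this r was -0.61 at an adjusted permutation p of 0.0523. Tg2576 vehicle replicate 4 had the highest Gabrd and the lowest Gabrb1. Gabra5 went with Gabbr1 (r 0.68, rho 0.60, permutation p 0.00629 and 0.0221, adjusted 0.0330 and 0.0929), with r 0.61 without the 2 mice farthest in Gabra5, and 0.48 at an adjusted permutation p of 0.189 in the residuals. With the length offset this r was 0.45 at an adjusted permutation p of 0.334, and with the GC offset 0.41 at 0.284. Without TMM factors it was 0.45 at 0.288. The GABA-B partners had r 0.57, rho 0.41 and an adjusted permutation p of 0.0860, and 0.30 without the 2 farthest mice. Gabra2 had no r beyond 0.27 in size with any other member.

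**Figure D4:**
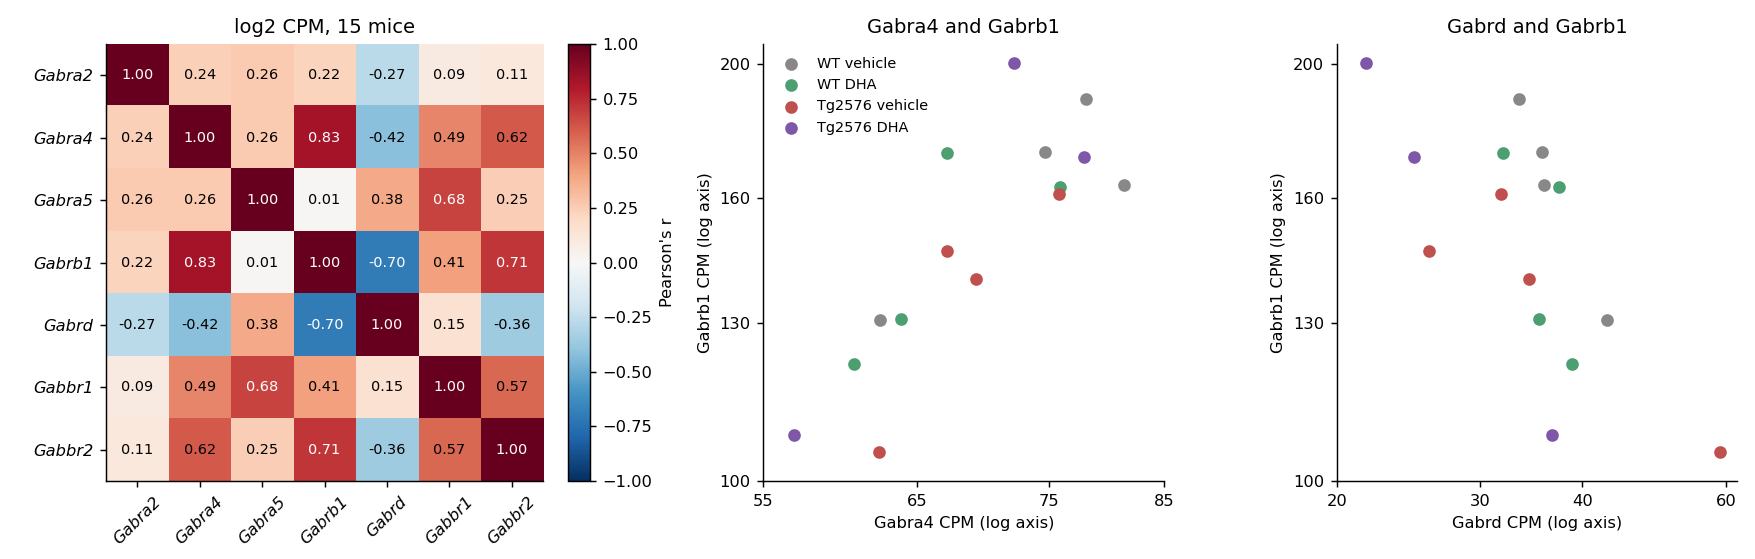
Pearson's r of log2 CPM for each pair of the 7 genes over 15 mice (left), and CPM of Gabrb1 against Gabra4 (middle) and Gabrd (right) on log axes, 1 point per mouse. Gabra4 and Gabrb1 rise together (r 0.83), and Gabrb1 is lowest in the mouse with the highest Gabrd.

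By the same measure over 15 mice and all genes tested, the genes most like each member were listed as a description, over libraries whose depth and tissue makeup the genes share. Gabrb1 was closest to Mfap3l (r 0.96), Bmpr2 (0.96), a receptor of bone morphogenetic proteins, and Taok1 (0.96), a kinase. Gabbr2 was closest to Pcdha11 (0.94), whose reads can be shared within its gene cluster, Gse1 (0.94) and Herc1 (0.93). Gabra4 was closest to AC127249.1 (0.90), Rasa1 (0.89) and U2surp (0.89). Gabra5 was closest to Smoc2 (0.90), Nek6 (0.89) and Gm26560 (0.87), the last with only 6 to 29 counts per mouse. Gabrd was closest to Sec1 (0.90), Zbtb17 (0.90) and Lpcat4 (0.88), and Gabbr1 to Ppfia2 (0.89), Nhsl1 (0.89) and Wasf1 (0.88), an actin regulator. Gabra2 had the least close companions, Gm42732 (0.84), Gpr85 (0.78) and Ankle2 (0.77). Gm42732 (chr5:73311364-73312560) and Ankle2 (chr5:110231004-110256651) lie on the same chromosome as Gabra2. Zbtb17 (chr4:141444654-141467930) lies on that of Gabrd.

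Some other genes of GABA signalling, taken from lists of synthesis, transport, anchoring and signalling genes, passed between genotypes. Under vehicle, 5 of 34 such genes tested were lower in Tg2576 mice at p under 0.01 and 0 higher, beside 3.09% of all genes in either direction (edgeR). Slc6a11, the glial GABA transporter GAT-3, had 140.2, 143.0, 133.2 and 145.8 CPM in WT vehicle and 104.4, 115.4, 119.7 and 101.9 CPM in Tg2576 vehicle mice. The groups did not overlap, and Slc6a11 fell by 0.35 ± 0.08 on the log2 scale (SE, unadjusted p 0.000579, adjusted p 0.170, edgeR). Kcnj6, which encodes the GIRK2 potassium channel that GABA-B receptors open, had 44.8, 52.1, 22.9 and 30.9 CPM in WT vehicle and 24.1, 20.5, 15.1 and 14.3 CPM in Tg2576 vehicle mice. It fell by 1.03 ± 0.27 (p 0.00194, edgeR), with 1 WT mouse below the highest Tg2576 mouse. Kctd16, an auxiliary subunit of GABA-B receptors, fell by 0.79 ± 0.26 (p 0.00813, edgeR). Gad1 and Gad2, which make GABA, fell by 0.28 ± 0.08 and 0.42 ± 0.14 (p 0.0041 for Gad1 and just under the threshold for Gad2, edgeR). Both are themselves part of the interneuron marker sum given above, so its lower level is no separate observation about them. In WT and Tg2576 vehicle mice the mean of Gad1 was 334.7 and 276.4 CPM and that of Gad2 139.9 and 104.6 CPM. No adjusted p of the 5 genes was under 0.05 in edgeR or limma-voom, while DESeq2 gave adjusted p of 0.0153 for Slc6a11 and 0.0166 for Kcnj6. Slc6a11 and Kcnj6 passed with each mouse left out in turn. Gad1 did not pass without Tg2576 vehicle replicate 3 or 4 or WT vehicle replicate 1 (p up to 0.0209, edgeR). Kctd16 was lost when any 1 of 6 mice was left out (Tg2576 vehicle replicates 1, 3 and 4, WT vehicle replicates 1 and 2 and WT DHA replicate 1, p up to 0.0436) and with limma-voom (p 0.0152). Gad2 was lost without any 1 of 9 mice (Tg2576 vehicle replicates 3 and 4, Tg2576 DHA replicate 3, and replicates 1, 3 and 4 of each WT group, p up to 0.0485) and in 5 other settings, and Gad1 was lost without TMM factors (p 0.0108).

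These 5 were 3 of 9 genes of GABA synthesis, transport and breakdown and 2 of 6 of GABA-B auxiliary subunits and effectors. Of 10 other GABA-A subunits tested, 7 anchoring genes and 2 chloride transporters, 0 passed under vehicle. Under DHA, 0 of the 34 genes passed between genotypes, beside 1.75% of all genes. DHA passed for 0 in WT and 0 in Tg2576 mice, beside 1.38% and 0.353% of all genes (edgeR). The averaged genotype kept Slc6a11, which fell by 0.23 ± 0.06 (p 0.00143, edgeR), and Kcnj6, which fell by 0.63 ± 0.20 (p 0.00718, edgeR), lost when any 1 of 8 mice was left out (p up to 0.0243), replicates 3 and 4 of Tg2576 vehicle and 1 and 2 of each of the other 3 groups. For these 2 genes, edgeR gave adjusted p of 0.135 and 0.238, and DESeq2 gave 0.0200 and 0.0447. In the same comparison 3.85% of all genes passed (edgeR). The averaged DHA difference passed for Gabra3, an alpha subunit, higher by 0.30 ± 0.09 (p 0.0026, adjusted p 0.892, edgeR), beside 0.870% of all genes. The interaction passed for Slc12a2, the chloride importer NKCC1, at 0.67 ± 0.21 (p 0.0048, adjusted p 0.845, edgeR), beside 0.829% of all genes. That call was lost when any 1 of 7 mice was left out (p up to 0.0166, edgeR). These were replicates 1, 3 and 4 of Tg2576 vehicle, 3 of Tg2576 DHA, 1 and 4 of WT DHA and 1 of WT vehicle. Slc12a2 is also expressed by choroid plexus, whose markers stood at the levels given above in Tg2576 DHA mice.

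**Figure D5:**
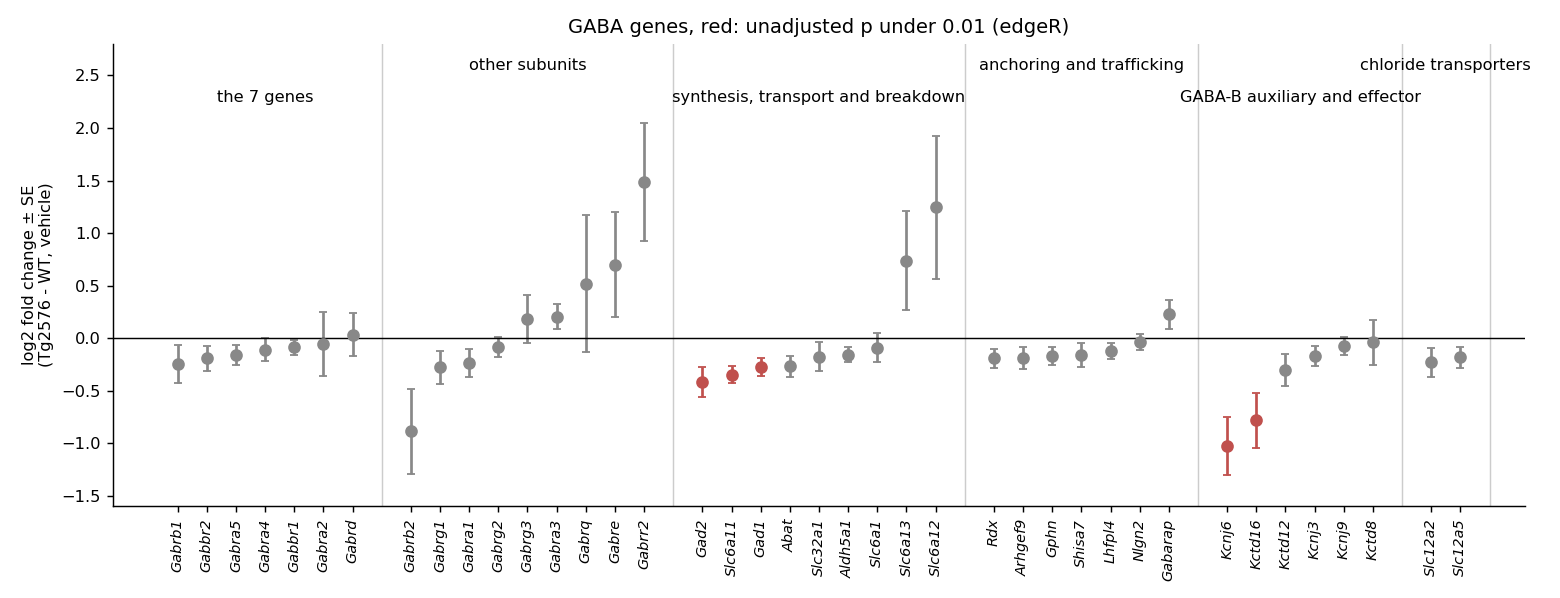
Log2 fold change ± SE between Tg2576 and WT vehicle mice for the 7 genes and 33 of the 34 other GABA genes by list, red where the unadjusted p was under 0.01. The 5 red points are Gad2, Slc6a11, Gad1, Kcnj6 and Kctd16, all below 0, and none is a receptor subunit of the 7.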

How the data were processed

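Hippocampal RNA-seq of 15 mice was analysed from the counts deposited by the authors, whole reads per gene and mouse, not normalized. Per the labels, reads were aligned with STAR 2.6.1c to GRCm38 and counted with featureCounts 1.6.0 over exons, with no strand option. The labels and the paper name different library kits. Identical libraries were not found (0 pairs).

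Counts were scaled by TMM (factors 0.961 to 1.03) and filtered with filterByExpr (minimum count 10), and 19536 genes were fitted over all 4 groups with edgeR 4.0.16 (glmQLFit, glmQLFTest, robust) in R 4.3.3. A gene was called at an unadjusted p under 0.01, after the study's rule, and Benjamini-Hochberg values were taken over all genes. Intervals are 95%. On simulated data for genotype under vehicle, 73.5% of 200 genes changed by 1 log2 unit were recovered among 19536. Changes as small as the differences of the members were not simulated, so this rate does not apply to them. log2 CPM used a prior count of 2. Single values and ratios were tested by two-sided exact permutation over mice, and correlations with 100000 permutations in Python 3.11.15. Alternatives used DESeq2 1.42.0, limma 3.58.1 and sva 3.50.0 beside other scalings, filters, offsets, the replicate block and leaving out each mouse; the offsets in the correlations were added after seeing the data. Each sample was taken as 1 mouse, and p-values measure the spread between these samples only. The members and the gene lists were chosen with earlier results of these data known. Of the lists, 1 gene is counted but not reported here by itself. All members are named, with at most 3 genes of each list per comparison by lowest p under 0.01 and the 3 genes most like each member.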

Additional observations from a re-analysis of the deposited data

Results flagged for a closer look

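In 30 groups of 4 mice (7 genes and 3 ratios, 3 groups each), a mouse stood apart from the other 3 by more than 0.829 of the group's range in 3, where chance flags about 1 in 20 groups. Gabra2 was 160.6 CPM in Tg2576 vehicle replicate 3, against 76.5 to 89.3 CPM in the other 3. In the same mouse the log2 ratio of Gabra5 to Gabra2 was 1.188, against 1.93 to 1.995 in the others. Both values rest on the 1 Gabra2 measurement. Gabbr1 was 767.7 CPM in WT vehicle replicate 1, against 829.6 to 840.6 CPM in the other WT vehicle mice. None of the 7 genes passed the interaction test at p under 0.01, at a lowest p of 0.183 (edgeR).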

How the results depend on the processing

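The count of 0 members called moved only with 1 surrogate variable, to 1 for genotype under DHA, 2 for the averaged genotype and 1 for the averaged DHA difference, and with 1 mouse left out, from 0 to 1 for DHA in Tg2576 mice. Over 49 values (7 genes, 7 comparisons) and 1302 refits, 101 refits of 21 values turned the sign, none with a p under 0.0832. The largest reported difference among these 21 was 0.12 in size. In 5 refits a value passed the threshold. The cause was not tested. Among the 4 comparisons of 2 groups, the offset for gene length turned Gabra2 (0.027) and Gabrd (-0.020) for genotype under vehicle, Gabbr1 (0.0027) for DHA in WT, and Gabra4 (-0.016) and Gabbr2 (-0.0082) for DHA in Tg2576. The GC offset turned Gabra2 (-0.13), Gabra4 (-0.063) and Gabrb1 (-0.015) for genotype under DHA, Gabbr2 (-0.051) for DHA in WT and Gabra4 (-0.046) for DHA in Tg2576. The surrogate variable turned Gabrd (-0.20) under vehicle, Gabra4 (-0.014) and Gabrb1 (-0.026) under DHA, and Gabra4 (-0.062) and Gabbr2 (-0.083) for DHA in Tg2576. limma-voom gave -0.023 for Gabrd under vehicle and -0.0019 for Gabra4 under DHA in Tg2576. Leaving out 1 mouse at a time gave the following ranges. Under vehicle, Gabra2 ran from -0.37 to 0.24 and Gabrd from -0.25 to 0.17. For genotype under DHA, Gabra2 ran from -0.049 to 0.16, Gabra4 from -0.052 to 0.17 and Gabrb1 from -0.074 to 0.34. For DHA in WT, Gabra2 ran from -0.12 to 0.36, Gabrd from -0.087 to 0.036 and Gabbr2 from -0.052 to 0.061. For DHA in Tg2576, Gabra4 ran from -0.089 to 0.13, Gabbr1 from -0.056 to 0.0061 and Gabbr2 from -0.10 to 0.19. The Gabbr1 to Gabbr2 ratio difference ran from -0.024 to 0.23 for genotype under DHA, -0.096 to 0.012 for DHA in WT and -0.19 to 0.068 for DHA in Tg2576. For genotype under vehicle, Gabra4 to Gabrd ran from -0.23 to 0.21 and Gabra5 to Gabra2 from -0.35 to 0.055. The 4 pairs of members correlated at an adjusted p under 0.05 became 2 to 6 with 1 mouse left out, 2 being the count when WT vehicle replicate 2 or Tg2576 vehicle replicate 4 was absent.

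Replicate numbers are shared between groups, but same-numbered mice had correlations of -0.244 to 0.213 over 21 pairs (median 0.0117, against 0.003 for other pairs), and 5 of 15 mice correlated best with their own number, so the numbers were not taken as pairs. With the replicate block 0 members were called in each comparison, and it turned Gabrd under vehicle (-0.011) and Gabra4 for DHA in Tg2576 (-0.0067). Over all genes, the 604 called for genotype under vehicle became 324 with WT vehicle replicate 2 left out and 965 with Tg2576 vehicle replicate 1 left out. For DHA in Tg2576, 69 became 290 with Tg2576 DHA replicate 1 left out, 137 with the surrogate variable, 126 with DESeq2 and 39 with only the groups compared. The surrogate variable gave 602 instead of 342 for genotype under DHA, 1381 instead of 753 for the averaged genotype and 300 instead of 170 for the averaged DHA difference. For DHA in WT, 270 became 449 with only the groups compared and 159 with WT vehicle replicate 1 left out. For the interaction, 162 became 289 with no filter, 247 with DESeq2 and 508 with Tg2576 DHA replicate 1 left out. Groups of 3 or 4 mice limit what can be seen for Gabra2.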

Other observations

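Gabra6, the alpha subunit of cerebellar granule cells, was removed by the filter on low counts. It had 285 counts in WT vehicle replicate 3 and between 0 and 10 in each of the other 14 mice. Gabrp had 0 counts in every mouse, and Gabrr1 and Gabrr3 had at most 8 and 9.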
